A study of Homo sapiens with 8 samples.

Results

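The class IIa histone deacetylase (HDAC) genes HDAC4, HDAC5, HDAC7 and HDAC9 and the MEF2 genes MEF2A, MEF2C and MEF2D were examined for RNA bound by the splicing regulator RBFOX2. Their members are the peaks whose midpoint lay in the GRCh38 RefSeq span of 1 of these 7 genes, on the strand of that gene. These were 368, 396, 418 and 422 peaks in replicates 1 to 4, or 1604 of 1118316 deposited peaks. RBFOX2 eCLIP was carried out in HEK293T cells, an immortalised human embryonic kidney line, with 4 immunoprecipitation (IP) libraries and 4 input libraries. All cells were irradiated with ultraviolet light of 254 nm at a dose of 400 mJ per square centimetre. The IP libraries carry RNA recovered with an antibody to RBFOX2, and each input is 2% of the same sample set aside as its pair. No genotype, agent or time differs between samples, and the labels do not say whether the replicates were separate cultures, so an SD here measures the spread between these libraries.

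Class IIa HDACs are transcriptional corepressors with little deacetylase activity of their own. They bind MEF2 proteins through an N-terminal segment, recruit corepressor complexes that contain HDAC3, and leave the nucleus when kinases such as CaMK, PKD and SIK phosphorylate them. MEF2 proteins are MADS-box transcription factors of muscle, nerve and blood cells, and their pre-mRNAs carry tissue-regulated alternative exons. RBFOX proteins recognise UGCAUG in RNA, often in introns beside alternative exons.

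Each deposited peak carries a log2 fold of IP over its paired input and a −log10 p for that fold, both computed by the authors. A peak is called enriched here when both are at least 3. The genes were chosen by these folds and p-values, which were already known when the family was picked, so the values that follow are a description and were not tested. Read counts per peak were not used here and the depth is unknown, so no counting interval is given for a fold. Outside the enriched peaks, folds fall mostly on a few repeated values such as 1.00, 1.58 and 2.00, the log2 of small whole numbers. Such folds can rest on few reads, so means and shares of these peaks are coarse. Folds of enriched peaks can also rest on few input reads, which was not tested. The same caution therefore holds for their maxima, order between libraries and ranks. In the 6 genes other than HDAC4, no −log10 p exceeded 1.41. Replicates 1 to 4 hold 267691, 281701, 288305 and 280619 called peaks.

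HDAC4, which can silence MEF2 targets in muscle, bone and neurons, was the only gene of the 7 with an enriched peak. It held 12, 8, 8 and 13 enriched peaks in replicates 1 to 4, a mean of 10.2 ± 2.63 (SD, n = 4). Over all called peaks, 0.861%, 0.848%, 0.789% and 0.775% were enriched in the same lists, and 0.818% of all peaks summed. HDAC5, HDAC7, HDAC9, MEF2A, MEF2C and MEF2D held 0 enriched peaks in each of the 4 lists. Among 11361 protein-coding genes with a called peak in each list, 9.67% held an enriched peak in at least 1 list, and 1 of these 7 genes did.

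All 41 enriched HDAC4 peaks lay in a single cluster of 810 nt on the minus strand, chr2:239365517-239366326. Its highest log2 fold was 6.66 in replicate 1, 5.98 in replicate 2, 5.91 in replicate 3 and 6.61 in replicate 4 (mean 6.29 ± 0.40, SD, n = 4). Replicates 1 and 4 were the higher pair and replicates 2 and 3 the lower. The highest −log10 p was 28.4, 23.8, 23.5 and 27.5, in the same order of libraries. When every called peak of the cluster was weighted by its length, the log2 fold was 5.55, 5.41, 5.26 and 5.65 (mean 5.47 ± 0.17, SD, n = 4), so the spread between libraries was narrower than for the highest peak.

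The cluster was covered without a gap in every library. Its peaks abutted end to end at 11, 7, 7 and 12 joints in replicates 1 to 4, and they spanned 810, 787, 801 and 800 nt. No called peak inside it missed the limits, and the lowest log2 fold was 4.34, 4.62, 4.32 and 3.58. Split into 6 stretches of 135 nt, the mean log2 fold lay between 5.23 and 5.74, with an SD over the 4 libraries of 0.46 to 0.76. The libraries placed the maximum differently. The highest peak covered nt 409 to 513 of the cluster in replicate 1 and nt 417 to 529 in replicate 4, counted from its 5′ end. In replicate 3 it covered nt 316 to 415, and in replicate 2 nt 649 to 792. No stretch stood above the others beyond the spread between libraries.

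**Figure D1:**
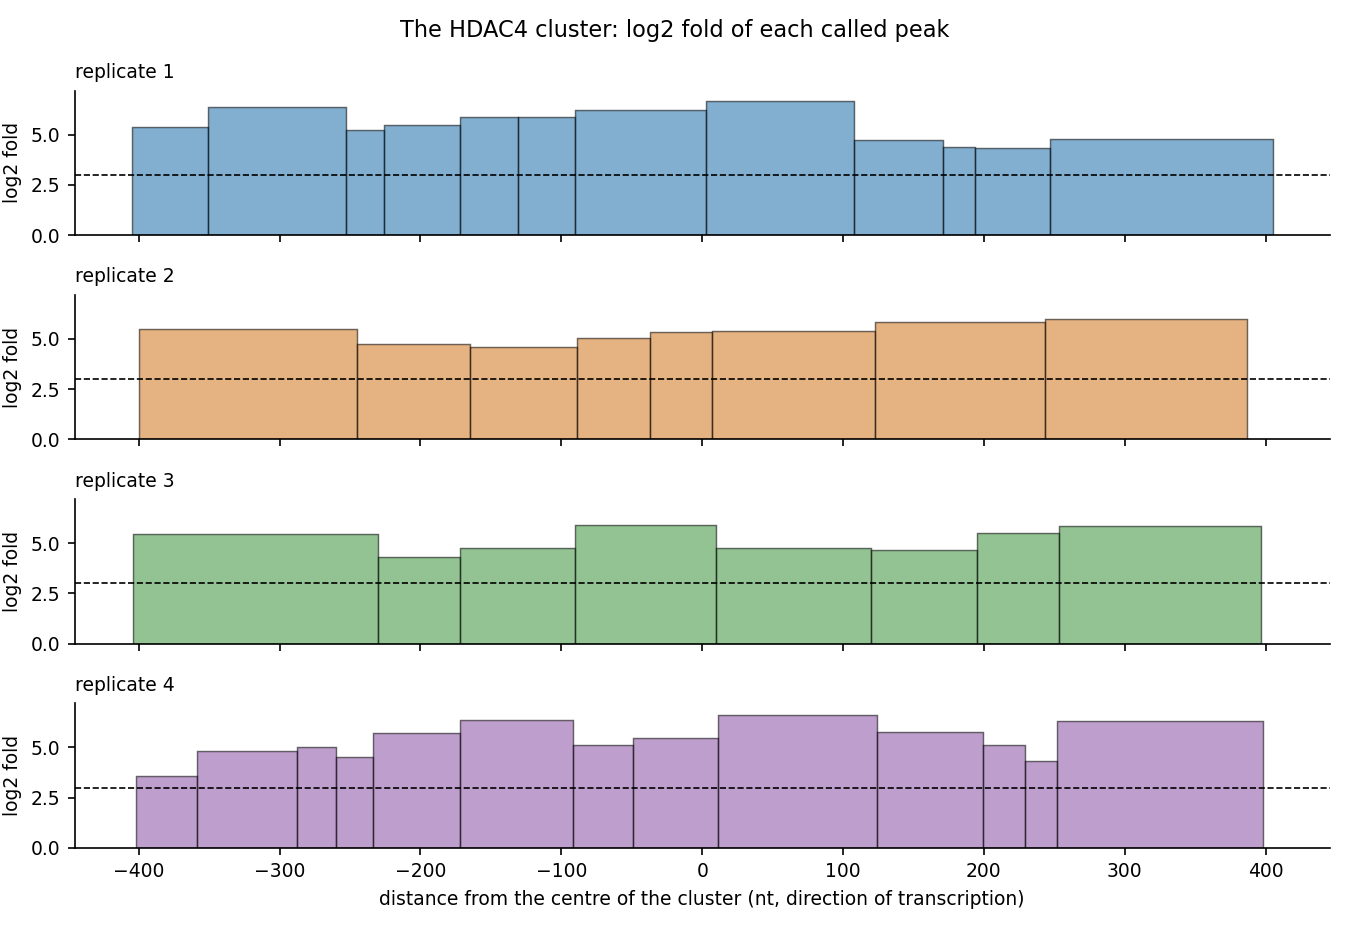
Log2 fold of IP over paired input for each called peak of the HDAC4 cluster (1 bar per peak, bar width is peak length), against distance from the cluster's centre in nt, with 1 panel per replicate and a dashed line at 3. The bars fill the cluster without a gap in all 4 panels and the lowest bar reaches 3.58.

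Some joints between peaks recurred. The 37 joints of the 4 libraries fell at 20 positions when joints no more than 5 nt from the next were grouped. Of these positions, 3 were shared by all 4 libraries, 4 by 3 libraries and 13 were found in 1 library. The 3 shared by all spread over 3, 8 and 10 nt. Taken joint by joint within 5 nt, 1, 2, 1 and 1 joints of replicates 1 to 4 were matched in every other library. How often joints would coincide by position alone was not tested. At nt 233 the joint of replicates 1, 3 and 4 was at the same base, and near nt 313 to 316 all 4 libraries had one.

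The edges were sharp on the 5′ side. The next called HDAC4 peak upstream of the cluster was 1948, 1960, 1936 and 2102 nt away in replicates 1 to 4, with a log2 fold of at most 2.32. On the 3′ side the next called peak was 880, 1243 and 869 nt away in replicates 1, 2 and 4. In replicate 3 it was 38 nt away, with a log2 fold of 3.59 and a −log10 p of 2.74, which is the peak of these genes that came nearest to the limit on p without passing it. The enriched peak with the lowest −log10 p had 4.68, in replicate 4. Outside the cluster, 5 of 1563 peaks of the 7 genes had a log2 fold of at least 3 and 0 had a −log10 p of at least 3.

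**Figure D2:**
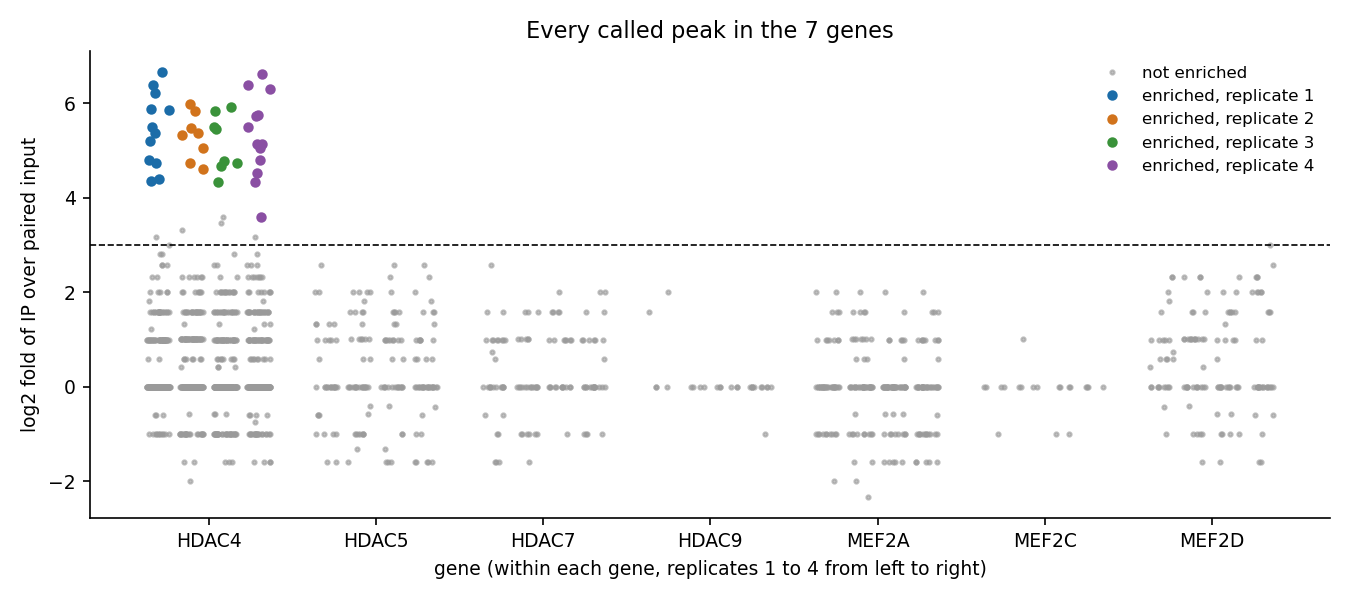
Log2 fold of every called peak of the 7 genes, with replicates 1 to 4 from left to right within each gene, enriched peaks in colour and a dashed line at 3. The 41 enriched peaks all belong to HDAC4, and the highest peak of the other 6 genes is a MEF2D peak just under 3, with a −log10 p below the limit.

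The HDAC4 span runs from 239048168 to 239401649 on chromosome 2, which is 353 kb, and is transcribed toward lower coordinates. The cluster began 35.3 kb downstream of the outermost annotated start site, at 9.99% of the span. RefSeq lists 5 start windows for HDAC4, each of 300 bases from 250 before to 50 after a start site. The cluster lay downstream of the outermost one and upstream of the other 4, which start 103 to 134 kb into the gene. A transcript from one of those 4 sites would therefore not contain it. No other annotated gene overlapped the cluster. Exon and intron positions were not used here, so the annotation within the span is not given.

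Of 3371 merged regions of enriched peaks, 552 (16.4%) were enriched in all 4 lists. Among these the HDAC4 cluster ranked 15th by mean log2 fold, taken from the highest peak of a region in each library. A highest value can favour regions with many peaks, and no rank by length-weighted mean is given. The cluster was 10th by length and 5th by its number of enriched peaks. Both of these ranks count it as 1 region, which a single replicate 2 peak across nt 233 joins. The median region had a mean log2 fold of 4.29, a length of 204.5 nt and 6 enriched peaks over the 4 lists. The regions of other genes with the most similar set of 4 log2 folds, by Euclidean distance, were in NXN (distance 0.450), TBCD (0.590) and CABLES1 (0.699). The NXN region (chr17:891562-892036) had 6.60, 6.36, 5.83 and 6.39 in replicates 1 to 4. The TBCD region (chr17:82850059-82850723) had 6.37, 6.25, 5.88 and 7.05. The CABLES1 region (chr18:23218602-23218721) had 6.30, 6.56, 5.91 and 6.44. Likeness was measured over 4 libraries only. Of the genes with a called peak in each list, 2.42% held a region enriched in all 4. The share was 12.2% among the 254 genes whose called peaks summed to between 0.5 and 2 times those of HDAC4, and 2.19% among the 11101 genes with fewer than that.

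HDAC4 also differed along its length. Outside the cluster, 67.6%, 78.5%, 67.1% and 75.6% of the called peaks in its first 40 kb had a log2 fold above 0.5 in replicates 1 to 4, a mean of 72.2% ± 5.71 (SD, n = 4). Beyond 40 kb the shares were 27.3%, 26.8%, 23.9% and 26.2% (mean 26.0% ± 1.49, SD, n = 4). The ranges of both parts did not overlap. Over all called peaks of the 4 lists, 31.4% had a log2 fold above 0.5 and 23.6% one below −0.5. In 2757 other protein-coding genes of at least 100 kb, the share above 0.5 was 28.2% ± 1.45 in the first 40 kb and 28.0% ± 1.26 beyond (SD, n = 4 libraries for both). The limit of 40 kb was chosen after the values were seen.

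Of 303 other long genes with at least 100 called peaks in their first 40 kb, 3 had a share as high as HDAC4 over the summed lists. They were DIP2C at 90.0%, GPATCH8 at 82.7% and GRAMD4 at 76.3%, against 72.1% for HDAC4, and they are named after their values were seen. The density of called peaks in HDAC4 was higher in the first 40 kb than beyond. It was 20.2 ± 4.11 per 10 kb in the first 10 kb and 19.1 ± 2.59 from 10 to 30 kb. From 30 to 40 kb it was highest, at 23.5 ± 5.74, from 94 called peaks over the 4 lists. That order rested on the abutting peaks of the cluster. Without them this stretch had 53 called peaks, fewer than the 81 of the first 10 kb. From 40 to 100 kb it was 8.96 ± 1.31, and beyond 200 kb it was 3.05 ± 0.35 (SD, n = 4 for each). More called peaks and higher folds thus sat in the same first stretch.

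**Figure D3:**
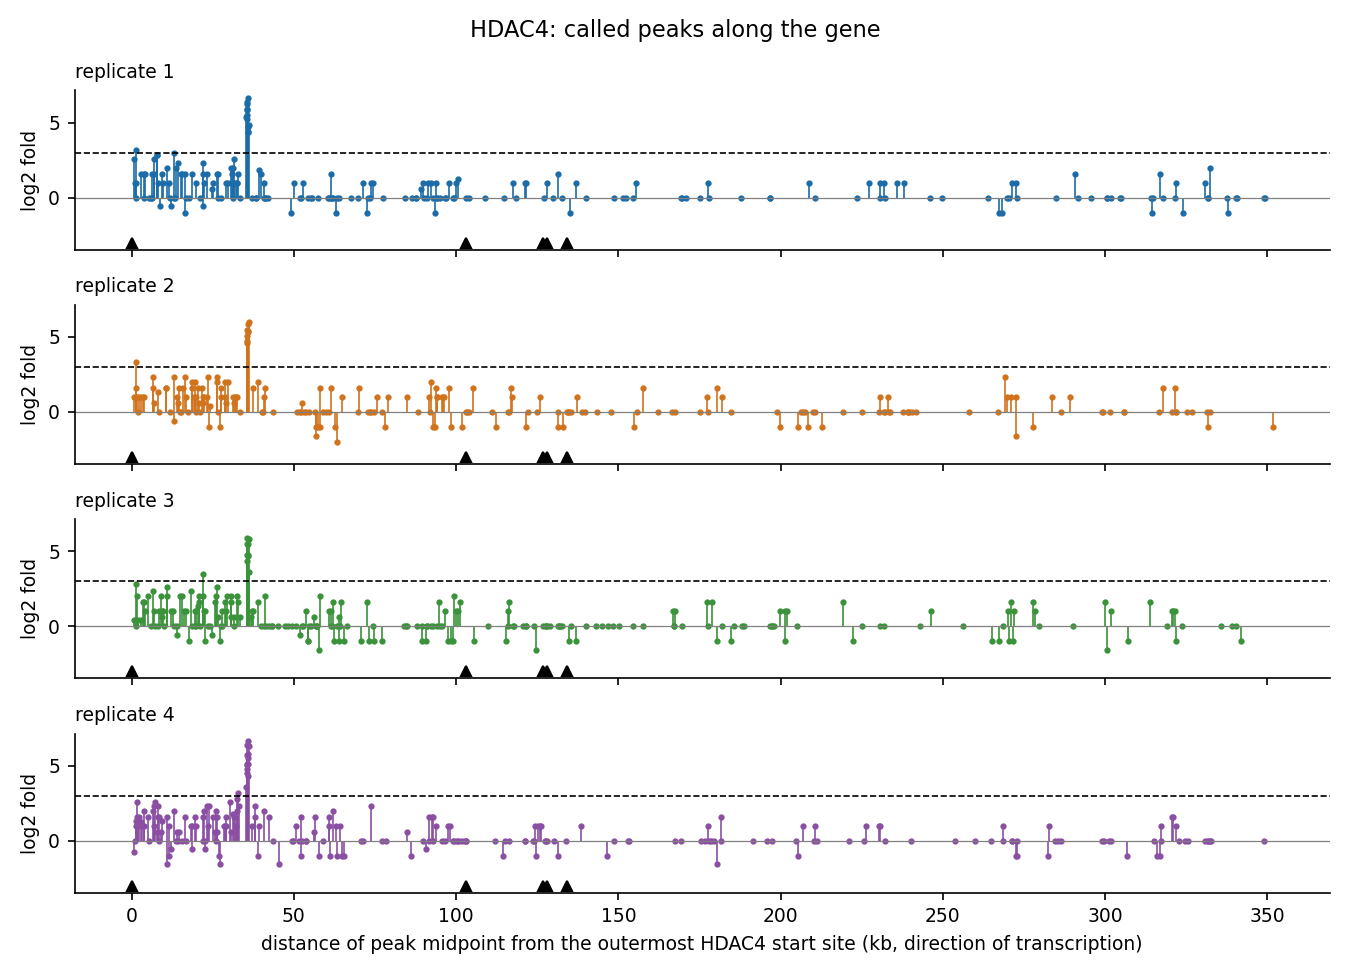
Log2 fold of each called HDAC4 peak against distance from the outermost start site in kb, with 1 panel per replicate, triangles at the 5 annotated start sites and a dashed line at 3. Folds above 0.5 crowd the first 40 kb, where they make up 67.1% to 78.5% of called peaks outside the cluster at 35.3 kb.

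Called peaks of the 4 libraries formed 605 regions in HDAC4, and 21 of them were called in all 4 lists. In 12 of these the mean log2 fold reached 1 or more, all in the first 40 kb, where 15 of the 21 lay. In the 6 beyond 40 kb the highest mean was 0.75. The strongest after the cluster lay 1.37 kb from the outermost start (chr2:239400069-239400276). Replicates 1 to 4 had log2 folds of 3.17, 3.32, 2.81 and 2.58 there, with a mean of 2.97 ± 0.34 (SD, n = 4). It was above 2.5 in each library, but its −log10 p reached only 0.903 to 2.20, so it was enriched in 0 lists. A region 21.8 kb from the start (chr2:239379656-239379812) had 1.58, 0.59, 3.46 and 1.58, a value that replicate 3 raised. These further regions, like the cluster, are described with their values known.

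Peak sequences could be read only where a called peak fell inside a RefSeq start window (GRCh38.p14), and the cluster falls in none. The peaks shown are examples of HDAC4 and MEF2D RNA that was called without enrichment, written 5′ to 3′ on the strand of the gene.
HDAC4 replicate 1, chr2:239273635-239273723, log2 fold 1.00: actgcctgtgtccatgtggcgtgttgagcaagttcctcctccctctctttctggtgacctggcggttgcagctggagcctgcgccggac
HDAC4 replicate 2, chr2:239298595-239298647, log2 fold 0.0014: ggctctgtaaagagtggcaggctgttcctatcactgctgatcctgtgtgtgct
MEF2D replicate 1, chr1:156490745-156490763, log2 fold 1.00: gagggcgggaaggctaggg
None of these peaks contains GCATG, the DNA form of the core RBFOX motif, searched on the strand of the gene only. It occurred in 1 of the 22 start windows of these genes, against 19.6% of the 35116 windows in the table. That match is in HDAC4, 91.9 kb downstream of the cluster, and 0 called peaks covered it. It is shown with its flanks and with the motif in capitals.
HDAC4 start window, chr2:239273597-239273621: caagactgtgGCATGggggcgtggg
No enriched peak overlapped any of the 22 windows, and a called peak overlapped 9 of them. A match is not a binding site, and its absence from these windows says nothing about the cluster.

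The other class IIa HDACs were called without enrichment. HDAC5, which restrains hypertrophic growth of the heart (chr17:44076753-44123641, minus strand), had 36, 46, 41 and 49 called peaks in replicates 1 to 4. Its region with the highest mean lay 32 kb from the 5′ end of the span (chr17:44091530-44091672). The log2 fold there was 2.58, 1.59, 2.59 and 2.58 (mean 2.34 ± 0.50, SD, n = 4), lower in replicate 2 than in the other libraries. The −log10 p did not exceed 1.15 in any of them. A further HDAC5 region 15.3 kb from the 5′ end of the span (chr17:44108259-44108361), named after its values were seen, had 1.32, 0.59, 1.32 and 1.58. HDAC5 thus had 2 regions above 0.5 in every library, of 9 called in all 4.

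HDAC7, which acts in thymocytes and endothelium (chr12:47782722-47821344, minus strand), had 32, 29, 25 and 30 called peaks. None of its 84 regions was called in all 4 lists. The one with the highest mean among those in 3 lists lay at the 3′ end of the span, at 99.6% of its length (chr12:47782765-47782873). It had log2 folds of 1.58, 1.00 and 2.00 in replicates 1 to 3, a mean of 1.53 ± 0.50 (SD, n = 3). Replicate 4 had no called peak there.

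HDAC9, known for roles in muscle and immune cells, has the longest span at 916 kb (chr7:18086825-19002416, plus strand). It had only 5, 4, 6 and 11 called peaks. No region was called in more than 2 lists, and the best of these (chr7:18401200-18401296) had 2.00 in replicate 1 and −0.00050 in replicate 4. With so few called peaks, no further comparison along HDAC9 could be made.

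Among the MEF2 genes, MEF2D (chr1:156463727-156500775, minus strand), a MEF2 gene expressed in many tissues, had the highest folds. It had 27, 38, 34 and 36 called peaks, and 55.6%, 50%, 41.2% and 41.7% of them had a log2 fold above 0.5. Among its regions called in all 4 lists, the one with the highest mean lay 6.36 kb from the 5′ end of the span (chr1:156494351-156494414). That is upstream of the MEF2D start site with a window, which is 10.1 kb into the span. The log2 fold there was 2.32, 1.59, 2.00 and 2.32 (mean 2.06 ± 0.35, SD, n = 4). The other 3 MEF2D regions called in all 4 lists with a mean of at least 1 were named after their values were seen. They lay between 90.7% and 95.4% of the span, toward its 3′ end. The first of them (chr1:156467078-156467180) had 1.81, 1.00, 1.59 and 3.0 (mean 1.85 ± 0.84, SD, n = 4), with the highest value in replicate 4. The second had 0.58, 2.32, 0.00077 and 2.00, and the third 0.74, 0.42, 1.59 and 1.58, so only the first was above 0.5 in every library.

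MEF2A, a regulator of muscle genes (chr15:99565417-99716488, plus strand), had 51, 59, 63 and 60 called peaks. The share with a log2 fold above 0.5 was 23.5%, 25.4%, 12.7% and 21.7% (mean 20.8% ± 5.63, SD, n = 4), below 31.4% of all called peaks. Its first 40 kb and the rest had shares of 22.3% ± 9.13 and 20.4% ± 4.75 (SD, n = 4 for both), a difference smaller than the spread between libraries. Among its regions called in all 4 lists, the one with the highest mean (chr15:99704130-99704255) had 1.00, 0.0014, 0.00077 and 1.58. None of its 8 regions called in all 4 lists was above 0.5 in every library.

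MEF2C, needed in heart, neural and B cell development (chr5:88717117-88904105, minus strand), had 5, 5, 6 and 4 called peaks, and 1 of these 20 had a log2 fold above 0.5. Its only region called in 3 lists, and in none was it more (chr5:88883070-88883171), had −1.0, 0.00077 and −0.00050 in replicates 1, 3 and 4. On the opposite strand of the MEF2C span, 4, 0, 2 and 4 peaks were called. All 10 lay in the span of the antisense gene MEF2C-AS1, with 0 enriched. The only other antisense peak in the 7 spans was 1 HDAC7 peak in replicate 2.

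**Figure D4:**
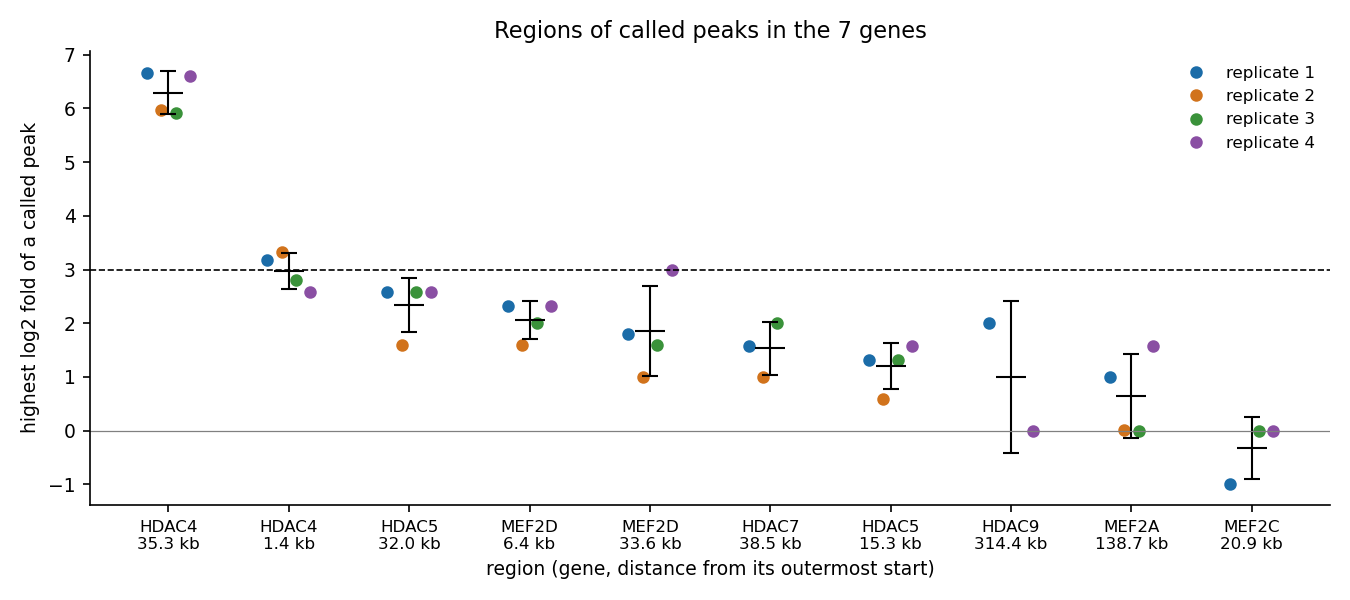
Highest log2 fold of a called peak in each library (coloured points), with the mean and SD in black and a dashed line at 3. Each gene is shown by its region with the highest mean among those called in the most lists. HDAC4, HDAC5 and MEF2D have 1 further region each. Only the HDAC4 cluster, at 6.29 ± 0.40, has all 4 points above the line.

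Per length of span, the density of called peaks was highest in HDAC5 (9.17 ± 1.22 per 10 kb) and MEF2D (9.11 ± 1.29). HDAC7 (7.51 ± 0.76) and HDAC4 (6.38 ± 0.41) followed (SD, n = 4 for each). The ranges of HDAC5 and MEF2D overlapped, as did those of MEF2D and HDAC7 and those of HDAC7 and HDAC4. MEF2A, at 3.86 ± 0.34, lay below every library of HDAC4. MEF2C, at 0.267 ± 0.0437, and HDAC9, at 0.0710 ± 0.0340, were lower still, and their ranges overlapped neither each other nor MEF2A. In density of peaks HDAC4 thus stood below HDAC5, MEF2D and HDAC7 by the mean, although it alone held enriched peaks.

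**Figure D5:**
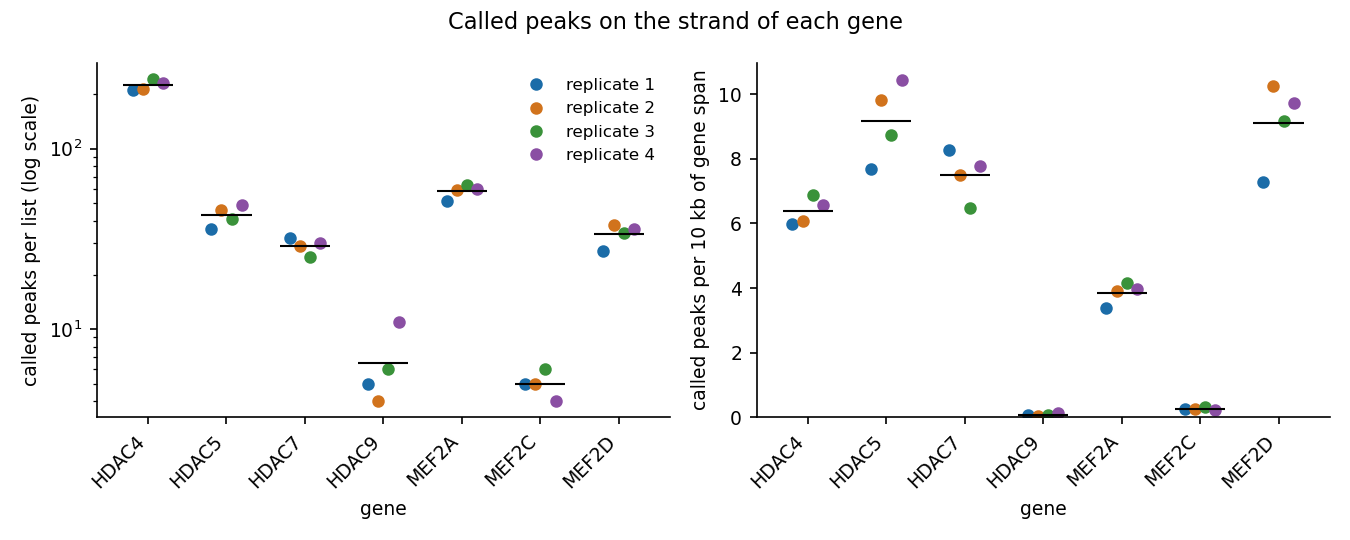
Called peaks on the strand of each gene per list (left, log scale) and per 10 kb of span (right), with 1 point per replicate and a black line at the mean. HDAC4 has the most peaks, at 212 to 243 per list, but HDAC5 and MEF2D have the highest density.

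Recurrence of called peaks was counted whatever their fold, and its differences from the background were not tested. Of all 701159 regions of called peaks, 7.06% were called in all 4 lists. The share was 8.57% of 105 regions in HDAC5, 5.62% of 89 in MEF2D, 4.85% of 165 in MEF2A and 3.47% of 605 in HDAC4. It was 0 of 84 in HDAC7, 0 of 21 in HDAC9 and 0 of 15 in MEF2C.

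The pathway around these genes was represented by 45 partners and regulators, of which 44 had a called peak in each list. A region enriched in all 4 lists was held by 2 of the 44 (4.55%), against 2.42% of all protein-coding genes with a called peak in each list. This count of 2 was 1 with a −log10 p of at least 5 and 0 when the log2 fold had to reach 4 with no limit on p. It was 1 without replicate 2 and 4 without replicate 4. An enriched peak in at least 1 list was held by 7 of them (15.9%), against 9.67%. The 44 genes had a median of 134 called peaks over the 4 lists and all such genes a median of 53, and the part of this gap in the shares was not tested.

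CABIN1, which binds calcineurin and represses MEF2, held a region (chr22:24102916-24103290, plus strand) with log2 folds of 3.70, 4.00, 4.03 and 3.81 (mean 3.88 ± 0.16, SD, n = 4). MARK2, a kinase that can phosphorylate class IIa HDACs, held 2 regions. The first (chr11:63840688-63840890, plus strand) had 3.91, 3.25, 3.70 and 3.09 (mean 3.49 ± 0.38), and its −log10 p was as low as 3.14 in replicates 3 and 4. The second (chr11:63841360-63841538) had 3.64, 3.59, 4.39 and 3.32 (mean 3.74 ± 0.46, SD, n = 4 for both). All were lower than the HDAC4 cluster in every library. The related kinase MARK3 and the corepressor BCOR held a region enriched in 3 lists. HDAC3, HDAC10 and the nuclear exporter XPO1 held 1 enriched peak each, in 1 list.

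The PKD kinases (PRKD1, PRKD2 and PRKD3), CAMK1, CAMK1D, CAMK4, SIK2, SIK3, the calcineurin catalytic subunits and the NCOR1 corepressor held 0 enriched peaks. TBL1X, a subunit of corepressor complexes with HDAC3, had 1074 called peaks over the 4 lists, more than the 902 of HDAC4, and 0 of them were enriched.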

How the data were processed

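Per the submitters' processing notes, UMI-tools 1.1.1, cutadapt 3.2 and STAR 2.7.7a were used with builds hg38 and GRCh38.p13. The peak caller, the p-value test, its adjustment and the scaling of IP to input are not given in the sources used here. The authors deposited 1 list per IP library against the input of its number, with a −log10 p and a log2 fold per peak. The lists have no header, so both units were read from their values. The −log10 p is capped at 400.

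Gene spans came from a RefSeq table of GRCh38.p14, and strands from its start windows, which cover 15844 of 20056 protein-coding genes. HDAC5 has no window and was taken as minus from general knowledge, and 0 peaks lay on its plus strand. For genes without a window, the strand with more called peaks was used, which matched the table in 97.1% of 7902 genes with at least 20 peaks. Enriched peaks of the 4 lists were merged on 1 strand by at least 1 nt of overlap. Per library, a region takes the highest log2 fold among its called peaks. A region was named if enriched in at least 3 lists, and where none was, the region with the highest mean among those called in most lists was named. Named pathway genes are those with a region enriched in all 4 lists, and others are named to account for the list. The genes, lists and limits were chosen with earlier results of these data known. Merging was tested on simulated data. The inputs have no separate values here and were not analysed on their own. Python 3.11.15, numpy 2.4.6, pandas 2.3.3 and matplotlib 3.10.9 were used. 1 gene of the pathway list is not reported here by name.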

Additional observations from a re-analysis of the deposited data

Results flagged for a closer look

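Of 38 groups of 4 library values that were checked, 3 had a library far from the other 3. About 1 in 20 such groups is expected to by chance where values vary smoothly. The folds here fall on a few repeated values and often tie, so that rate may not apply. In the HDAC5 region 32 kb from the 5′ end of its span, replicate 2 had a log2 fold of 1.59 against 2.58 to 2.59 in the others. In an HDAC4 region 22.1 kb from the start (chr2:239379394-239379502), replicate 4 had 2.00 against 1.00 in the others. In an HDAC4 region 39.0 kb from the start (chr2:239362496-239362665), replicate 4 had −1.0 against 1.59 to 2.00. Each of these regions has low −log10 p values, at most 1.15, 0.426 and 0.745 in that order.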

How the results depend on the processing

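No result reversed. Enriched peaks per library in the 7 genes stayed within 1.5 times 10.2 under all alternatives tried, with 9.33 to 11.0 when 1 replicate was left out. HDAC4 was the only one of the 7 genes with an enriched peak under each of 4 other limits. These limits could not admit another gene. No peak outside the cluster had a −log10 p of at least 3, and the highest log2 fold there was 3.59. Joining peaks only where 50% of the shorter overlapped split the HDAC4 cluster into 6 regions, each enriched in all 4 lists. Leaving out 1 replicate gave 1 to 2 regions and a mean log2 fold of the cluster from 6.17 to 6.42. The 2 regions without replicate 2 are the same cluster cut after nt 233, where replicates 1, 3 and 4 share a joint. Only a replicate 2 peak, from nt 161 to 240, crosses that joint. The length-weighted mean was 5.47 against 6.29. The count of 2 pathway genes was 1 with a −log10 p of at least 5, 0 when the log2 fold had to reach 4 with no limit on p, and 1 to 4 when 1 replicate was left out, with 1 without replicate 2 and 4 without replicate 4. The share of HDAC4 peaks above 0.5 in the first 40 kb, 72.2%, was 69.3% over 20 kb, 61.8% over 60 kb and 70.1% to 73.9% without 1 replicate. That share, its alternatives and the limit of 3.1 on p for the pathway genes were chosen after seeing the data. The cause of the other shifts was not tested. The planned motif search in the regions was not run, for want of a genome of this build. No paired analysis was possible because the lists give IP relative to input in a single fold, with no separate input values. Without read counts, the precision of a single fold is unknown.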
